A study of Mus musculus with 12 samples.

Results

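The 40 genes described here encode the machinery that copies DNA and supplies its building blocks. They were named as a list by symbol and found by Ensembl identifier in a table of read counts for 37620 mouse genes, where all 40 were present and all 40 passed the filter on low counts, beside 14616 genes tested in all. The cells were bone marrow-derived macrophages of C57BL/6 mice, grown as primary cultures and taken at day 7. They form 4 groups of 3 libraries: normoxia with 25 mM NaCl (normoxia-NaCl), normoxia with 25 mM sodium lactate (normoxia-lactate), hypoxia at 1% oxygen with NaCl (hypoxia-NaCl) and hypoxia with lactate (hypoxia-lactate). All groups share the strain and the day, the NaCl groups serve as the sodium control for lactate, and the length of the exposure is not given in the sources used here. Whether replicate libraries trace to different animals or culture dishes is not stated, and the p-values therefore describe the spread among libraries, which may be technical.

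A cell licenses its replication origins in G1, when ORC, Cdc6 and Cdt1 load the ring-shaped MCM helicase onto DNA. At the start of S phase Cdc45 and the GINS complex join MCM to form the active helicase, and polymerases alpha, delta and epsilon follow, held on DNA by the PCNA clamp and fed with deoxynucleotides by ribonucleotide reductase and thymidylate synthase. Bone marrow progenitors divide under growth factor while they become macrophages, and transcription of most of these genes is tied to E2F factors and peaks at the G1 to S transition.

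The promoters of several members carry letters of the E2F type, and 5 stretches before the start site are shown as examples of these matches, a feature outside the count table. Sequences are from RefSeq (GRCm38.p6), written 5′ to 3′ on the gene's strand, and capitals mark every E2F-type match. The matches searched, on both strands and with overlaps allowed, were TTTCCCGC, TTTGGCGC, TTTCGCGC and TTTGCCGC.
Mcm5 (chr8:75109344-75109498, plus strand): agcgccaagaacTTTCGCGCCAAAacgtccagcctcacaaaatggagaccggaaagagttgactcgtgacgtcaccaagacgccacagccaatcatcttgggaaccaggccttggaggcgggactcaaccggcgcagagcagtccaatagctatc
Mcm6 (chr1:128359711-128359830, minus strand): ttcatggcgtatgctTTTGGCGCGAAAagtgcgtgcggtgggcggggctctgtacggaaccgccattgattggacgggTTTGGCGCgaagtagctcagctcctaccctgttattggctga
Orc1 (chr4:108579384-108579443, plus strand): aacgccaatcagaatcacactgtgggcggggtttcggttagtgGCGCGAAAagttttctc
Cdc6 (chr11:98908001-98908050, plus strand): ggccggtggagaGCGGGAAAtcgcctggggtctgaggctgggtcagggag
Pola1 (chrX:93632176-93632305, minus strand): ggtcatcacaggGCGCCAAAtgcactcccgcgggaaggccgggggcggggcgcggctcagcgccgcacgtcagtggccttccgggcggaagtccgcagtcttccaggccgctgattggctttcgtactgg
In Mcm5 and at the upstream place in Mcm6 the run in capitals holds 2 overlapping matches, 1 on each strand. A window from 250 bases before to 50 bases after the start was given for 33 members, and 13 of these genes (39.4%) held at least 1 match, against 704 of 27025 genes (2.6%) in the whole table and 1 of 22 genes of a list of mitosis genes. The CCAAT box (letters CCAAT, either strand) was held by 20 of the 33 members, 19 of 22 mitosis genes and 41.1% of all genes. ACGTG, the core letters of sites for the hypoxia-inducible factor HIF, was held by 12 of 33 members, 8 of 22 mitosis genes and 21.8% of all genes. TTTGAA, the letters of the CHR element known from mitosis genes, was held by 4 of 33 members, 17 of 22 mitosis genes and 20.2% of all genes. These are matches of letters and no measure of binding. No window was used for Gins1, Gins2, Rfc2, Pole, Prim2, Gmnn and Mcm4.

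The gene counts summed to 22705978 to 49885085 per library, of which the 40 genes took 0.0699% to 0.164%. Levels are given as CPM (counts scaled to a common library size) after TMM scaling, a correction for library composition. All 7 genes of a list of known hypoxia targets were higher in hypoxia-NaCl than in normoxia-NaCl without overlap and passed the test, Egln3 with a log2 fold change of 4.91 ± 0.25 (SE, edgeR quasi-likelihood adjusted p = 1.28e-06). The macrophage markers summed to between 34550 and 50040 CPM, most of it Lyz2. Single markers moved with treatment: with both together and 11 libraries edgeR called Mertk, C1qa and C1qb lower and Cd14 higher. Mertk was at 23.8 to 34.0 CPM in normoxia-NaCl, 11.6 to 13.0 in normoxia-lactate, 11.3 to 26.6 in hypoxia-NaCl and 6.19 to 16.0 in hypoxia-lactate. In hypoxia-lactate 3, the library left out for these calls, C1qa and C1qb were at 73.9 and 428 CPM. Those values lay within the normoxia-NaCl ranges of 30.7 to 75.5 and 306 to 605 CPM. Fibroblast markers summed to 25.2 to 100.3 CPM, mainly Col1a1 and Col1a2, with 78.5 to 100.3 in the 4 libraries numbered 1 and 97.7 in hypoxia-lactate 3. Myeloid progenitor markers summed to 15.8 to 35.7 CPM, mainly Cd34, and the lymphocyte and mast cell lists to below 1 CPM. Cebpe, a progenitor marker, was at 2.76 to 5.03 CPM in the 4 libraries numbered 2 and at 0.734 to 2.61 CPM elsewhere. Flt3, Elane and Prtn3 were also highest in the library numbered 2 of each group, at 0.113 to 1.66 CPM. Cd34, Kit, Mpo and Ctsg did not follow this in every group. The library hypoxia-lactate 3 stands apart: 11437 genes had at least 10 counts there against 13198 to 14767 elsewhere, and mitochondrial transcripts made up 0.486% of counts against 2.04% to 4.75%. It was the lowest of the 12 libraries for 28 of the 40 members and the highest for 4, namely Ung, Rrm1, Rfc2 and Pola1. Calls and counts are therefore given for 12 libraries and for the 11 without it, when hypoxia-lactate has 2 libraries and the test assumes that they vary as the other groups do. The library was picked out by its values in these data, and the p-values with 11 libraries do not account for that choice. Normoxia-NaCl 2 was the highest library for 32 members. Neutrophil markers summed to 24.8 to 49.2 CPM in the 4 libraries numbered 2, where S100a8, S100a9, Ngp and Ltf were all raised, against 0.275 to 3.29 CPM in the other libraries but hypoxia-lactate 3. There S100a8 alone was high (34.9 CPM), and S100a9, Ly6g, Camp, Ngp and Ltf were at 0. The part of these marker levels in the results below was not tested.

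Per kilobase of exon the sliding clamp Pcna was the most abundant member, at a mean of 81.8 CPM per kb over the 12 libraries. It was followed by the licensing inhibitor Gmnn (16.9 CPM per kb), the flap nuclease Fen1 (15.02) and the MCM loader Cdt1 (12.6). The lowest were Cdc6 (0.945), the catalytic polymerase alpha subunit Pola1 (0.801) and Orc1, the largest subunit of the origin recognition complex (0.279). In total CPM the 40 genes summed to 1201, 1485 and 913 in normoxia-NaCl libraries 1 to 3. The sums were 904, 1081 and 756 CPM in normoxia-lactate, 906, 951 and 705 in hypoxia-NaCl and 910, 908 and 941 in hypoxia-lactate. The highest 2 sums were thus both normoxia-NaCl libraries, while normoxia-NaCl 3 lay among the other groups. Pcna made up a large part of the hypoxia-lactate sums. Without it they were 644.3, 636.8 and 682.5 CPM, against 745.0, 761.1 and 535.8 in hypoxia-NaCl. When Ung, Rrm1, Rfc2 and Pola1 were taken out as well, hypoxia-lactate 3 had 368.5 CPM, the lowest of all. In bulk RNA fewer cells in S phase and less of these RNAs per cell cannot be told apart.

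**Figure D1:**
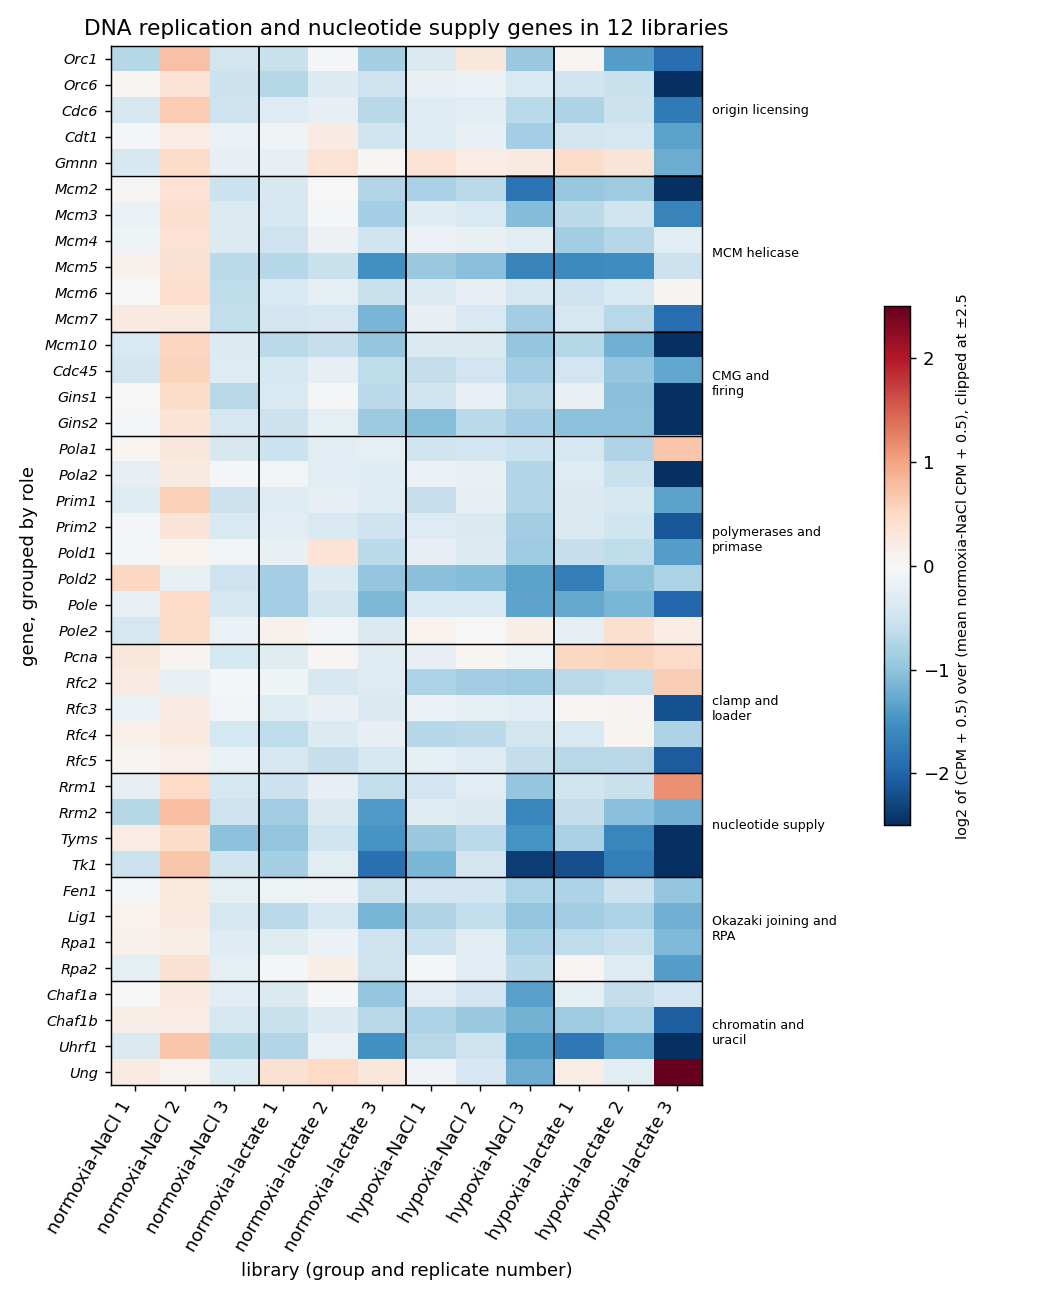
Colour map of the 40 genes (rows, by role) in the 12 libraries (columns), as log2 of CPM plus 0.5 over the normoxia-NaCl mean plus 0.5, clipped at 2.5 either way. Blue (lower) prevails outside normoxia-NaCl, and the last column, hypoxia-lactate 3, holds most of the darkest cells of both colours.

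Low oxygen without lactate was compared first (hypoxia-NaCl against normoxia-NaCl), the question being what 1% oxygen alone does. The point estimate was negative for 38 of 40 members, with a median log2 fold change of -0.55 against 0.01 over all tested genes. With 12 libraries 0 members passed an adjusted p of 0.05 by edgeR's quasi-likelihood test, by DESeq2 or by limma-voom, where 0.281% of all genes passed by edgeR. At an unadjusted p under 0.05 by edgeR, 7 members were lower (3.2% of all genes) and 0 higher (3.29%) with 12 libraries. With 11 libraries 22 were lower (10.2% of all genes) and 0 higher (8.28%). In 15 members every hypoxia-NaCl library was below every normoxia-NaCl library, against 12% of all genes, and in 0 members the reverse held (12.8% of all genes). Without hypoxia-lactate 3, 2 members fell and 0 rose by edgeR, Rfc2 and Chaf1b, against 0.557% of all genes called lower. Same-numbered libraries of these groups deviated together, and when their number entered the 11-library fit as a block 13 members fell, against 2.62% of all genes: Rfc2, Chaf1b, Mcm2, Mcm3, Mcm5, Gins2, Pold2, Fen1, Lig1, Rpa1, Tk1, Uhrf1 and Chaf1a. The median moved to -0.32 without normoxia-NaCl 2, to -0.72 without normoxia-NaCl 3 and to -0.38 without hypoxia-NaCl 3.

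Among the origin licensing genes the estimates for low oxygen alone lay between -0.44 and 0.26. Cdt1 was at 46.8, 55.1 and 42.8 CPM in normoxia-NaCl, 45.3, 55.6 and 33.9 in normoxia-lactate, 38.4, 42.1 and 26.4 in hypoxia-NaCl and 35.02, 35.9 and 18.8 in hypoxia-lactate. All 3 hypoxia-NaCl libraries lay below the normoxia-NaCl ones (log2 fold change -0.43 ± 0.28, edgeR adjusted p = 0.922), and normoxia-lactate overlapped both. Cdc6, the ATPase that works with Cdt1, was at 4.89, 10.6 and 4.50 CPM in normoxia-NaCl, 5.20, 5.69 and 3.96 in normoxia-lactate, 5.34, 5.40 and 3.99 in hypoxia-NaCl and 3.71, 4.43 and 1.60 in hypoxia-lactate. Normoxia-NaCl 2 stood above all others, and hypoxia-NaCl overlapped normoxia-NaCl (-0.44 ± 0.45, edgeR adjusted p = 0.97 for low oxygen alone). Hypoxia-lactate lay below normoxia-NaCl without overlap, at most 4.43 CPM against at least 4.50. Gmnn, which keeps Cdt1 from loading MCM again after S phase begins, was 1 of the 2 members with a positive estimate (0.26 ± 0.38, edgeR adjusted p = 0.988), the other being the polymerase epsilon subunit Pole2 (0.08 ± 0.34, edgeR adjusted p = 1). Orc1 had no read in hypoxia-lactate 3, where 3 counts, a floor set by choice, would be 0.178 CPM. Whether that floor bounds the level in this library was not tested. Orc6 lay between 0.475 and 10.6 CPM over all libraries. None of the 5 passed edgeR's test in any comparison, with 12 libraries or with 11, when no block was used.

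All 6 subunits of the MCM helicase had negative estimates for low oxygen alone, for lactate in normoxia and for both together. Mcm5 was at 53.8, 64.9 and 30.9 CPM in normoxia-NaCl, 30.1, 33.9 and 17.2 in normoxia-lactate, 26.1, 23.8 and 15.2 in hypoxia-NaCl and 16.2, 16.6 and 34.3 in hypoxia-lactate. Normoxia-NaCl 1 and 2 lay far above the rest, and hypoxia-lactate 3 was near normoxia-NaCl 3 while hypoxia-lactate 1 and 2 were among the lowest. The difference for low oxygen alone was -1.20 ± 0.39, edgeR adjusted p = 0.493 with 12 libraries and -1.20 ± 0.29, edgeR adjusted p = 0.0609 with 11, not past the threshold in either. Mcm2 was at 28.5, 36.1 and 19.2 CPM in normoxia-NaCl, 21.1, 27.8 and 16.5 in normoxia-lactate, 15.6, 17.3 and 7.40 in hypoxia-NaCl and 14.3, 14.8 and 3.15 in hypoxia-lactate. Hypoxia-NaCl and hypoxia-lactate both lay wholly below normoxia-NaCl (-1.05 ± 0.50, edgeR adjusted p = 0.78 for low oxygen alone). Mcm4 was at 24.9, 34.7 and 21.1 CPM in normoxia-NaCl, 18.7, 24.2 and 19.00 in normoxia-lactate, 24.4, 23.4 and 22.2 in hypoxia-NaCl and 14.6, 16.2 and 21.9 in hypoxia-lactate. Here hypoxia-NaCl overlapped normoxia-NaCl, and hypoxia-lactate 1 and 2 were the lowest of all. Mcm6, the subunit with the highest CPM, was at 60.05, 80.1 and 37.8 CPM in normoxia-NaCl, 45.5, 50.3 and 40.1 in normoxia-lactate, 46.7, 51.5 and 43.4 in hypoxia-NaCl and 41.2, 45.3 and 62.2 in hypoxia-lactate, and its groups overlapped in every comparison. Mcm3 and Mcm7 had estimates of -0.55 ± 0.34 and -0.46 ± 0.37 for low oxygen alone.

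The 4 genes of factors that turn MCM into a moving helicase had mean levels between 1.19 and 2.38 CPM per kb. Gins2, a subunit of the GINS ring, was at 13.1, 17.3 and 10.01 CPM in normoxia-NaCl, 9.16, 11.5 and 6.93 in normoxia-lactate, 6.20, 8.29 and 7.24 in hypoxia-NaCl and 6.36, 6.38 and 0.653 in hypoxia-lactate. Both hypoxia groups lay below normoxia-NaCl without overlap (-0.90 ± 0.58, edgeR adjusted p = 0.914 for low oxygen alone, -0.90 ± 0.24, edgeR adjusted p = 0.0836 with 11 libraries). Mcm10, which helps activate the helicase, was at 10.5, 20.2 and 10.8 CPM in normoxia-NaCl, 8.49, 9.07 and 6.80 in normoxia-lactate, 10.6, 10.7 and 6.79 in hypoxia-NaCl and 8.19, 5.74 and 1.72 in hypoxia-lactate. Normoxia-lactate lay wholly below normoxia-NaCl, whereas hypoxia-NaCl overlapped it. Cdc45 did not overlap between hypoxia-NaCl and normoxia-NaCl (-0.67 ± 0.36) and Gins1 did (-0.50 ± 0.64); neither passed the test.

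Of the 8 polymerase and primase genes 7 had negative estimates for low oxygen alone. Pold2, the small subunit of polymerase delta, was at 28.9, 17.5 and 13.96 CPM in normoxia-NaCl, 11.01, 15.8 and 9.96 in normoxia-lactate, 9.52, 9.22 and 7.62 in hypoxia-NaCl and 5.78, 9.57 and 11.4 in hypoxia-lactate. All 6 hypoxia libraries were below all 3 normoxia-NaCl libraries, and normoxia-NaCl 1 was well above the other 2 (-1.19 ± 0.35, edgeR adjusted p = 0.426 for low oxygen alone, -1.19 ± 0.28, edgeR adjusted p = 0.0535 with 11 libraries). Pold1, the catalytic subunit of the same enzyme, was at 36.8, 39.97 and 35.9 CPM in normoxia-NaCl, 32.8, 47.9 and 23.2 in normoxia-lactate, 32.6, 29.6 and 20.1 in hypoxia-NaCl and 24.9, 24.1 and 14.2 in hypoxia-lactate. Hypoxia-NaCl lay below normoxia-NaCl, but normoxia-lactate 2 was the highest library of all. Pole, the catalytic subunit of polymerase epsilon, was at 17.9, 28.7 and 14.98 CPM in normoxia-NaCl, 11.2, 14.8 and 9.09 in normoxia-lactate, 15.6, 15.6 and 7.91 in hypoxia-NaCl and 8.19, 9.004 and 4.92 in hypoxia-lactate. Both lactate groups lay below normoxia-NaCl, and hypoxia-NaCl 1 and 2 lay just above its lowest library. Pola1 was lower in hypoxia-NaCl without overlap (-0.54 ± 0.40), while Pola2, Prim1 and Prim2, the other parts of the enzyme that lays down RNA-DNA primers, overlapped and had estimates between -0.52 and -0.34.

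All 5 genes of the clamp and its loader had negative estimates for low oxygen alone, while Pcna was highest in hypoxia-lactate. Rfc2, a subunit of the RFC complex that opens the PCNA ring, was at 49.5, 37.9 and 41.6 CPM in normoxia-NaCl, 39.6, 32.6 and 34.3 in normoxia-lactate, 24.8, 23.2 and 23.1 in hypoxia-NaCl and 26.6, 28.1 and 66.2 in hypoxia-lactate. The 3 hypoxia-NaCl libraries were within 2 CPM of each other and far below every normoxia library, hypoxia-lactate 1 and 2 were close to them, and hypoxia-lactate 3 was the highest of all. Rfc2 fell by 0.86 ± 0.14 on the log2 scale in low oxygen without lactate when hypoxia-lactate 3 was left out (SE, edgeR adjusted p = 0.00907), and the call held when any 1 of the other 11 libraries was left out too (adjusted p 0.0100 to 0.0422). With 12 libraries the estimate was -0.86 ± 0.31, edgeR adjusted p = 0.585, and over all alternatives the adjusted p ran from 2.76e-06 to 1. Rfc5, another subunit, was at 26.5, 28.3 and 23.3 CPM in normoxia-NaCl, 19.3, 17.4 and 19.1 in normoxia-lactate, 22.1, 20.8 and 17.1 in hypoxia-NaCl and 15.8, 15.8 and 5.76 in hypoxia-lactate. Each of the other groups lay below normoxia-NaCl, and hypoxia-lactate was the lowest. Pcna was at 223, 194 and 136 CPM in normoxia-NaCl, 149, 189 and 149 in normoxia-lactate, 160, 190 and 170 in hypoxia-NaCl and 265, 271 and 259 in hypoxia-lactate. The 3 hypoxia-lactate libraries, the one that stands apart included, were above all 9 others, and the remaining 3 groups overlapped. Against normoxia-lactate the Pcna difference was 0.71 ± 0.20, edgeR adjusted p = 0.212 with 12 libraries and 0.72 ± 0.20, edgeR adjusted p = 0.119 with 11, not past the threshold by edgeR, but past it by DESeq2 (adjusted p = 0.0206 with 12 libraries and 0.0294 with 11). Pcna has near-identical processed copies in the genome, so its reads are uncertain where the counting could split them. Rfc3 and Rfc4 overlapped between most groups, and Rfc4 was lower in hypoxia-NaCl (-0.66 ± 0.35) by a margin of under 0.1 CPM between the nearest libraries.

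The 4 nucleotide supply genes had estimates between -1.16 and -0.55 for low oxygen alone. Rrm1, the large subunit of ribonucleotide reductase, was at 52.2, 83.5 and 44.4 CPM in normoxia-NaCl, 41.05, 52.04 and 39.3 in normoxia-lactate, 42.9, 49.2 and 30.6 in hypoxia-NaCl and 42.2, 40.7 and 133 in hypoxia-lactate. Hypoxia-lactate 3 was far above every other library, and the rest overlapped apart from normoxia-NaCl 2. Tk1, thymidine kinase of the salvage pathway, was at 20.02, 47.5 and 20.6 CPM in normoxia-NaCl, 16.1, 24.1 and 7.69 in normoxia-lactate, 13.01, 21.3 and 5.27 in hypoxia-NaCl and 5.99, 8.52 and 4.63 in hypoxia-lactate. Hypoxia-lactate lay below normoxia-NaCl without overlap, but hypoxia-NaCl 2 reached into that group (-1.16 ± 0.54, edgeR adjusted p = 0.774 for low oxygen alone). Rrm2, the small subunit made in S phase, ranged from 13.4 to 72.8 CPM, and Tyms, which makes thymidylate, from 0.593 to 15.3 CPM. Both were highest in normoxia-NaCl 2, and neither passed edgeR's test in any comparison, with 12 libraries or with 11, when no block was used.

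**Figure D2:**
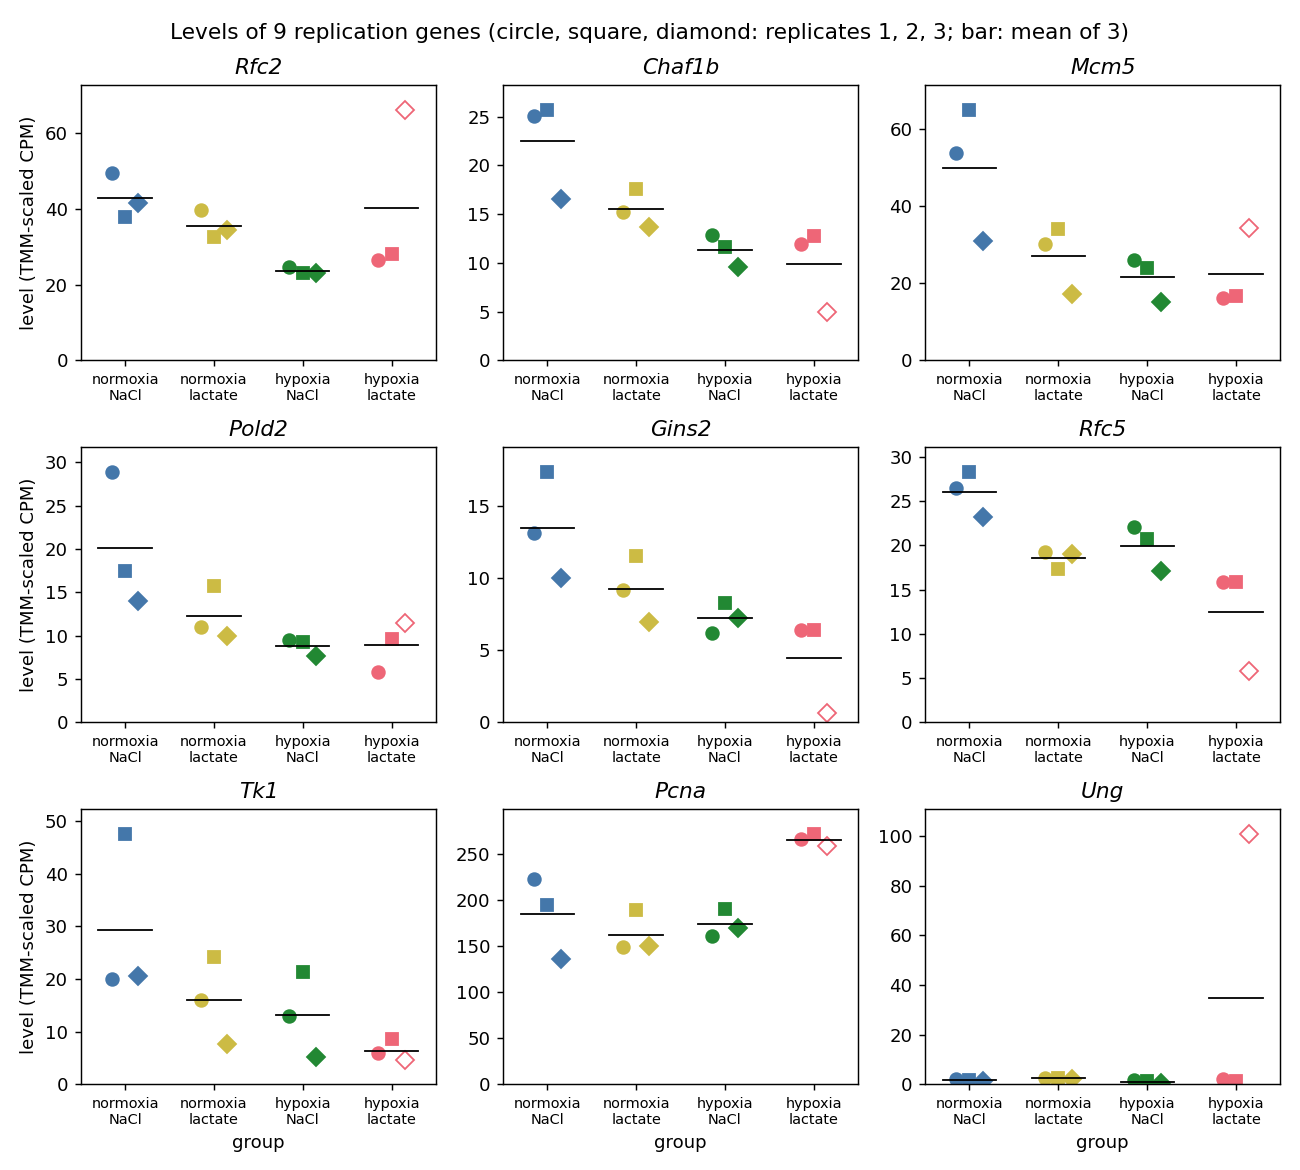
Levels in CPM (y axis) of 9 genes in the 4 groups (x axis), with a symbol for each library, a bar for the mean of 3 and an open diamond for hypoxia-lactate 3. Rfc2 drops in both hypoxia groups apart from that library, Pcna is above 250 CPM only in hypoxia-lactate, and Ung is above 3 CPM in no library but hypoxia-lactate 3.

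The genes that bind single strands and finish the lagging strand all had negative estimates for low oxygen alone, between -0.79 and -0.32. Fen1, which cuts the flaps, was at 45.2, 56.1 and 39.4 CPM in normoxia-NaCl, 43.04, 44.3 and 31.7 in normoxia-lactate, 33.7, 33.3 and 26.8 in hypoxia-NaCl and 27.2, 32.3 and 23.9 in hypoxia-lactate. Every hypoxia-NaCl library and every hypoxia-lactate library was below every normoxia-NaCl library. Lig1, which seals the nicks, was at 45.4, 50.6 and 31.9 CPM in normoxia-NaCl, 26.5, 31.8 and 18.8 in normoxia-lactate, 25.1, 27.7 and 21.4 in hypoxia-NaCl and 23.2, 24.7 and 18.2 in hypoxia-lactate. All 3 other groups lay wholly below normoxia-NaCl, with -0.79 ± 0.26, edgeR adjusted p = 0.516 for low oxygen alone. Rpa1, the large subunit of the single-strand binding protein, was at 70.3, 72.9 and 51.9 CPM in normoxia-NaCl, 52.8, 58.6 and 45.2 in normoxia-lactate, 44.8, 53.8 and 36.9 in hypoxia-NaCl and 42.00, 44.3 and 29.96 in hypoxia-lactate. Hypoxia-NaCl 2 alone among the hypoxia libraries lay above the lowest normoxia-NaCl library. Rpa2 overlapped between hypoxia-NaCl and normoxia-NaCl (-0.32 ± 0.36).

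The CAF-1 subunits and Uhrf1 act on chromatin behind the fork, and Ung on the DNA itself. Chaf1b, the p60 subunit of the CAF-1 histone chaperone, was at 25.1, 25.7 and 16.6 CPM in normoxia-NaCl, 15.2, 17.6 and 13.7 in normoxia-lactate, 12.8, 11.6 and 9.55 in hypoxia-NaCl and 11.9, 12.8 and 4.98 in hypoxia-lactate. Every hypoxia library was below every normoxia library. Chaf1b fell by 0.99 ± 0.20 on the log2 scale in low oxygen without lactate with 11 libraries (SE, edgeR adjusted p = 0.0255), and the estimate with 12 was -0.99 ± 0.34, edgeR adjusted p = 0.559. That call was lost when normoxia-NaCl 1, normoxia-NaCl 2 or any 1 of the hypoxia-NaCl libraries was left out too (adjusted p up to 0.115), and held without each of the other 6. Chaf1a, the large subunit of CAF-1, was at 22.5, 27.04 and 18.6 CPM in normoxia-NaCl, 17.6, 21.9 and 11.4 in normoxia-lactate, 18.5, 16.1 and 8.55 in hypoxia-NaCl and 19.1, 14.9 and 16.1 in hypoxia-lactate. Hypoxia-NaCl lay below normoxia-NaCl, by little in its first library, and hypoxia-lactate overlapped both. Uhrf1, which passes DNA methylation on to the new strand, ranged from 7.95 to 46.4 CPM in 11 libraries and had no read in hypoxia-lactate 3. Ung, which removes uracil from DNA, was at 100.8 CPM in hypoxia-lactate 3 and between 0.45 and 2.69 CPM in the other 11, so its 12-library values for that group rest on 1 library.

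Lactate was then compared in normoxia (normoxia-lactate against normoxia-NaCl), with the controls shared with the comparison of low oxygen alone. Estimates were negative for 38 of 40 members, with a median of -0.41 against 0.01 over all genes. By edgeR 0 members passed the test with 12 libraries (0% of all genes) or with 11 (0.0331%), and 0 passed by DESeq2 or limma-voom with 12. Unadjusted p-values under 0.05 were found in 3 members that were lower (Lig1, Mcm5 and Pole, 0.951% of all genes) and in 0 that were higher (0.602%) with 12 libraries. With 11 they were found in 11 lower members (4.13% of all genes) and 0 higher ones (2.81%). When the library number was also a block, 2 members fell with 11 libraries, Mcm5 and Lig1 (0.192% of all genes lower). Groups did not overlap in 5 members with normoxia-lactate lower (Mcm10, Pole, Rfc3, Rfc5 and Lig1), against 6.16% of all genes, and in 1, Ung, with it higher (5.6%). Lig1 had the smallest p, at -0.73 ± 0.26, edgeR adjusted p = 1, and Mcm5 was at -0.88 ± 0.38.

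Lactate in hypoxia (hypoxia-lactate against hypoxia-NaCl) had a median of -0.26 with 29 of 40 estimates negative, and -0.08 with 26 negative when hypoxia-lactate 3 was left out. By edgeR 0 members passed with 12 libraries (0% of all genes) or with 11 (0.0398%), and 0 by DESeq2 or limma-voom with 12. With 12 libraries 1 member was lower at an unadjusted p under 0.05, Pole (4.08% of all genes), and 3 were higher, Ung, Pcna and Rfc2 (7.31%). With 11 libraries 1 was lower (5.17% of all genes) and 1 higher (4.23%). Groups did not overlap in 3 members with hypoxia-lactate lower (Orc6, Mcm4 and Rfc5), against 9.3% of all genes, and in Pcna and Rfc2 with it higher (6.69%). The Rfc2 estimate of 0.76 ± 0.31 became 0.21 ± 0.16 without hypoxia-lactate 3, whereas Pcna stayed at 0.64 ± 0.20.

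Low oxygen in the presence of lactate (hypoxia-lactate against normoxia-lactate) had a median of -0.45, and of -0.24 without hypoxia-lactate 3. By edgeR 0 members passed with 12 libraries (0.226% of all genes) or with 11 (0.862%). DESeq2 with 12 libraries called 1 member, Pcna, higher (2.99% of all genes in either direction), and limma-voom called 0. At an unadjusted p under 0.05 by edgeR, 3 members were lower (5.32% of all genes) and 2 higher (9.3%) with 12 libraries. With 11 libraries 2 were lower (7.43% of all genes) and 1 higher (6.67%), and with the block as well 3 fell past the threshold, Mcm5, Tk1 and Uhrf1 (0.663% of all genes lower). Groups did not overlap in 8 members with hypoxia-lactate lower (Mcm2, Gins2, Pola2, Prim1, Pole, Rfc5, Rpa1 and Chaf1b), against 11.3% of all genes, and in Pcna with it higher (8.23%). For Pola2, 1.48 CPM in hypoxia-lactate 3 lay far below 18.4 and 15.5 CPM in the other libraries of its group.

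By the members' median the largest difference was that between cells given both low oxygen and lactate and cells given neither (hypoxia-lactate against normoxia-NaCl). The median was -0.87 with 35 of 40 estimates negative, and -0.63 with 36 negative without hypoxia-lactate 3. With 12 libraries edgeR called 0 members, where it called 1.61% of all genes. At an unadjusted p under 0.05 edgeR put 21 members lower (8.91% of all genes) and 2 higher (11.8%) with 12 libraries, and 19 lower (13.5%) and 1 higher (12.6%) with 11. DESeq2 called 9 members lower with 12 libraries (9.92% of all genes in either direction), namely Tk1, Pole, Chaf1b, Lig1, Rfc5, Fen1, Pold2, Rpa1 and Mcm10, and limma-voom called 0. Groups did not overlap in 18 members with hypoxia-lactate lower, against 11.2% of all genes, and in 1, Pcna, with it higher (9.39%). Without hypoxia-lactate 3 edgeR called 8 members lower and 0 higher, against 3.26% of all genes lower. With the library number as a block 5 members fell with 12 libraries (0.773% of all genes lower) and 21 with 11 (7.3%). Ung was the only member called when hypoxia-lactate 1 or 2 was left out of the 12, as higher, which rests on hypoxia-lactate 3.

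Those 8 came from 5 of the 8 roles: Mcm4 and Mcm5 of the helicase, Gins2 of GINS, Pold2 and Pole of the polymerases, Rfc2 and Rfc5 of the clamp loader, and Chaf1b. With 11 libraries Mcm5 fell by 1.60 ± 0.35 on the log2 scale (SE, edgeR adjusted p = 0.0177) and Pold2 by 1.38 ± 0.33 (edgeR adjusted p = 0.027). Rfc5 fell by 0.71 ± 0.17, with the same adjusted p as Pold2, and Gins2 by 1.08 ± 0.28 (edgeR adjusted p = 0.0382). The other 4 were Pole at -1.25 ± 0.34, Chaf1b at -0.86 ± 0.22, Mcm4 at -0.80 ± 0.21 and Rfc2 at -0.65 ± 0.16, with edgeR adjusted p from 0.0304 to 0.0466. Leaving out a further library ended the Mcm5 and Rfc5 calls without hypoxia-lactate 1 or 2, the Pold2 call without normoxia-NaCl 1 or hypoxia-lactate 1, and the Rfc2 call without hypoxia-NaCl 1, hypoxia-lactate 1 or hypoxia-lactate 2 (adjusted p up to 0.132, 0.152, 0.204 and 0.185). Mcm4 was called only without normoxia-NaCl 1, normoxia-NaCl 3 or normoxia-lactate 2, Gins2 only without normoxia-NaCl 3, normoxia-lactate 2 or normoxia-lactate 3, and Pole only without normoxia-NaCl 3, normoxia-lactate 2 or hypoxia-NaCl 3 (adjusted p otherwise up to 0.214, 0.183 and 0.22). Chaf1b was called without normoxia-NaCl 3, normoxia-lactate 2, normoxia-lactate 3 or hypoxia-NaCl 3, and otherwise had an adjusted p up to 0.198. With 12 libraries the adjusted p of the 8 ran from 0.072 (Pole) to 0.892 (Rfc2, whose estimate was then -0.09). Tk1 had the largest decrease of the members with 12 libraries and with 11, -2.20 ± 0.56, edgeR adjusted p = 0.0715 with 12 libraries and -2.02 ± 0.59, edgeR adjusted p = 0.0565 with 11, outside the threshold in both.

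**Figure D3:**
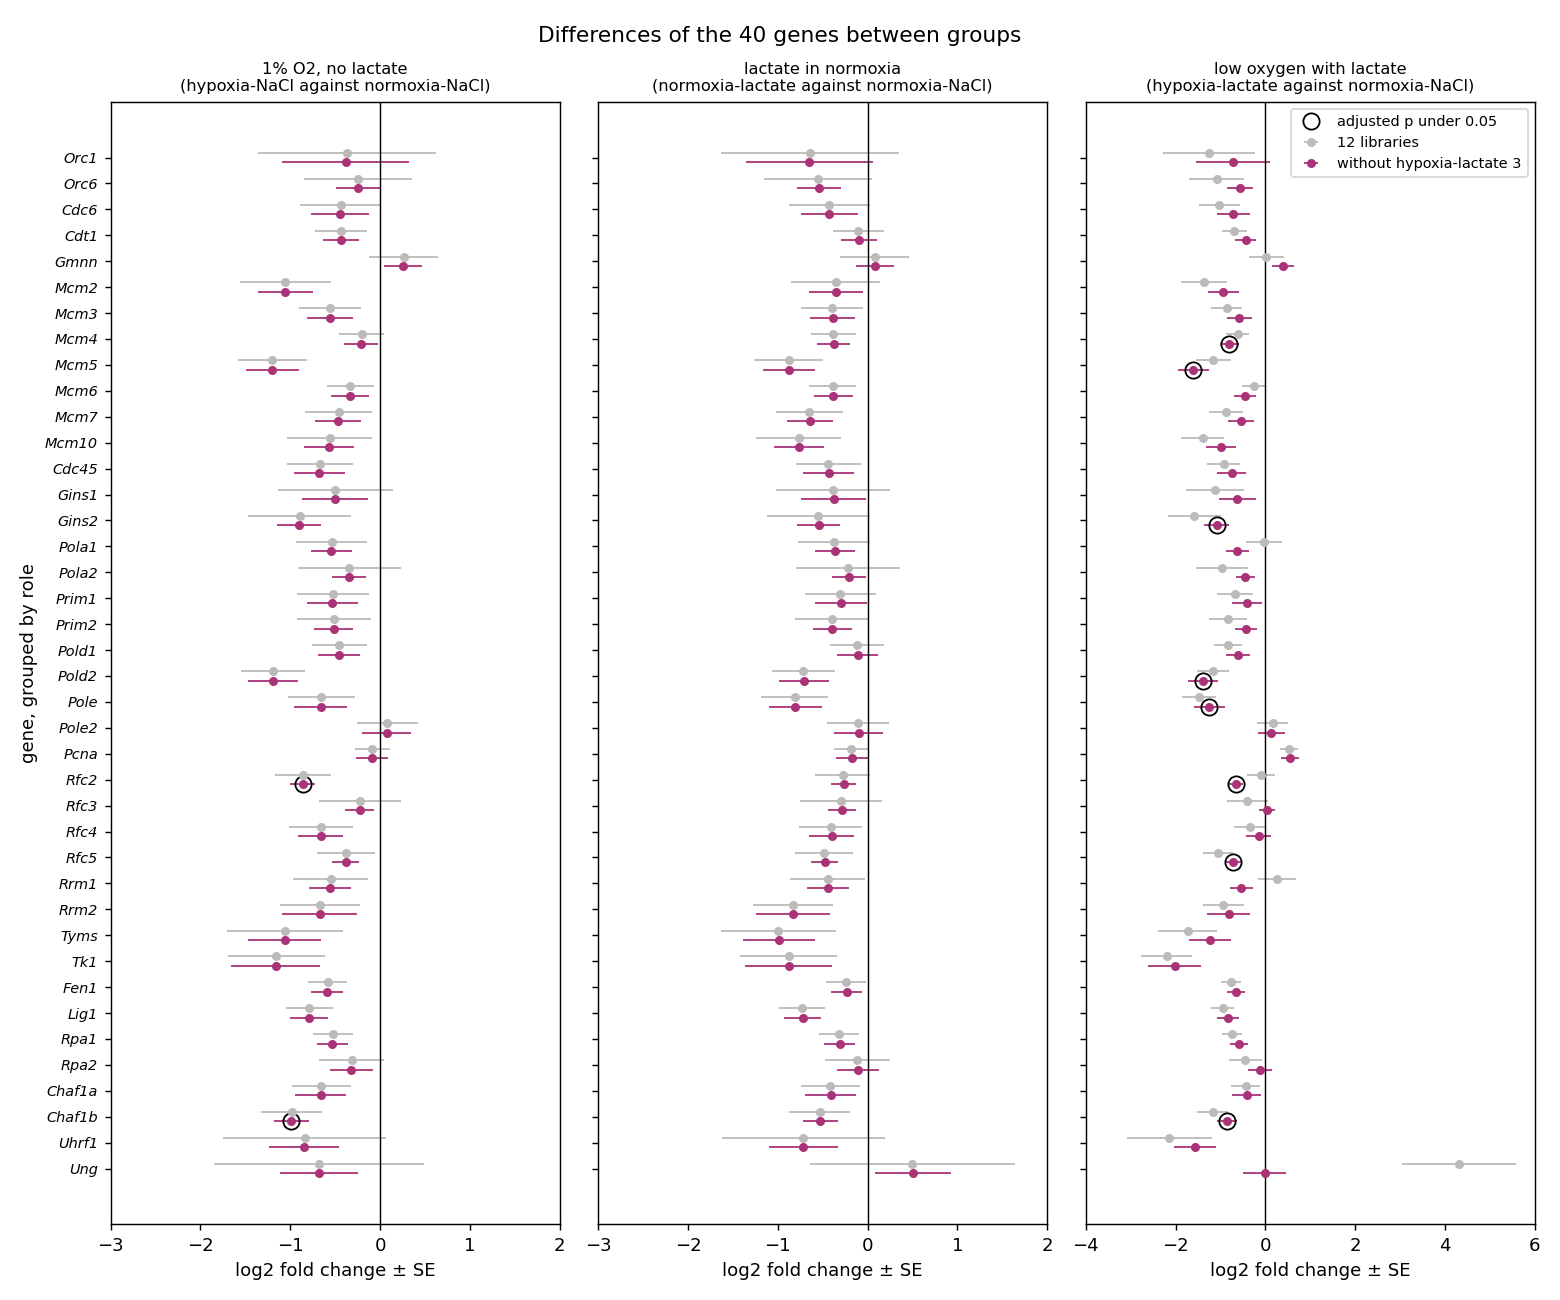
Log2 fold change ± SE (x axis) of the 40 genes (y axis, by role) for low oxygen alone, lactate alone and both together against normoxia-NaCl, with 12 libraries in grey and 11 in purple; the 3 comparisons share their control libraries. Most points lie left of 0 in each panel, and the ringed genes, 2 on the left and 8 on the right, passed the test with 11 libraries.

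Averaged over NaCl and lactate, low oxygen gave a median of -0.49 over the members with 12 libraries and -0.37 with 11. With 12, edgeR called 0 members (1.38% of all genes) and limma-voom 0. DESeq2 with 12 libraries called 4 lower (5.88% of all genes in either direction): Chaf1b, Fen1, Pold2 and Tk1. At an unadjusted p under 0.05 by edgeR, 13 members were lower (6.69% of all genes) and 1 higher (8.48%) with 12 libraries, and 18 lower (13.2%) and 1 higher (11.6%) with 11. With 11 libraries edgeR called 7 members lower and 0 higher, against 3.68% of all genes lower. With the library number as a block 2 members fell with 12 libraries (0.349% of all genes lower) and 18 with 11 (7.71%). Rfc2 fell by 0.62 ± 0.11 on the log2 scale with 11 libraries (SE, edgeR adjusted p = 0.00444), and this call held when any other library was left out too, but with 12 libraries the estimate was -0.34 ± 0.22, edgeR adjusted p = 0.492. Chaf1b, Pold2, Mcm5, Gins2, Fen1 and Mcm2 fell by 0.66 ± 0.15, 0.94 ± 0.22, 0.96 ± 0.22, 0.72 ± 0.18, 0.50 ± 0.13 and 0.82 ± 0.23, with edgeR adjusted p from 0.0198 to 0.0478. Chaf1b was lost without normoxia-lactate 1 or 2 or hypoxia-lactate 1 or 2, Pold2 without normoxia-lactate 2, hypoxia-NaCl 3 or hypoxia-lactate 1, and Mcm5 without normoxia-lactate 1 or 2, hypoxia-NaCl 3 or hypoxia-lactate 1 or 2 (adjusted p up to 0.0876, 0.114 and 0.0997). Gins2 and Fen1 held only without normoxia-NaCl 1, normoxia-NaCl 3 or normoxia-lactate 3, and Mcm2 only without normoxia-NaCl 3 or normoxia-lactate 3 (adjusted p otherwise up to 0.118, 0.155 and 0.152).

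Averaged over oxygen, lactate gave a median of -0.35 with 12 libraries and -0.22 with 11. By edgeR 0 members passed with 12 libraries (0.0342% of all genes) or with 11 (0.305%), and 0 passed by DESeq2 or limma-voom with 12. By edgeR 6 members were lower (3.44% of all genes) and 1 higher (3.54%) at an unadjusted p under 0.05 with 12 libraries, and 9 lower (7.22%) and 0 higher (5.75%) with 11. With the block and 11 libraries 6 fell past the threshold (0.954% of all genes lower). The interaction, which asks whether low oxygen acts differently with and without lactate, passed in 0 members by edgeR with 12 libraries (0% of all genes), with 11 (0%), and by DESeq2 and limma-voom with 12. At an unadjusted p under 0.05 with 12 libraries, 0 members had a lower interaction (1.72% of all genes) and 3 a higher one (1.68%), Pcna (0.80 ± 0.28), Ung and Rfc2. With 11 libraries 0 were lower (2.78% of all genes) and 6 higher (1.26%), Pcna, Rfc2, Rfc3, Rfc4, Lig1 and Chaf1b. Of the 40 interaction estimates 16 were negative with 12 libraries and 3 with 11, where the median was 0.32. A positive interaction here means that the difference with low oxygen was less negative, or more positive, in lactate than in NaCl.

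Other genes of the pathway were counted by lists. With 11 libraries edgeR called 0.557% of all genes lower for low oxygen alone, 3.26% for both together and 3.68% for low oxygen averaged. It called 98, 543 and 590 of 15088 genes higher for low oxygen with lactate, both together and low oxygen averaged. With 12 libraries it called 1.38% of all genes in either direction for low oxygen averaged. Of 32 further replication factors edgeR called 0 in any of the 8 comparisons with 12 libraries. At an unadjusted p under 0.05 by edgeR for low oxygen alone, 1 was lower (3.2% of all genes) and 0 higher (3.29%) with 12 libraries. With 11 libraries 7 were lower (10.2% of all genes) and 1 higher (8.28%) at that unadjusted p. With 11 libraries 2 fell with low oxygen averaged, the alternative clamp loader subunit Chtf18 (-0.99 ± 0.28, edgeR adjusted p = 0.0474) and Rnaseh2c, part of the enzyme that removes RNA from DNA (-0.67 ± 0.18, edgeR adjusted p = 0.0449). The median of that list for low oxygen alone was -0.15. Of 22 purine and pyrimidine synthesis genes 21 had negative estimates for low oxygen alone, with a median of -0.43. Hypoxia-NaCl was wholly lower in 12 of the 22, against 12% of all genes. With 11 libraries 2 of them fell in low oxygen alone, Cad, which starts pyrimidine synthesis (-0.70 ± 0.16, edgeR adjusted p = 0.0459), and Mthfd1 of the folate cycle (-0.72 ± 0.15, edgeR adjusted p = 0.0331). Adss, an adenylosuccinate synthase of AMP synthesis, went the other way with 11 libraries. It rose in low oxygen with lactate (0.77 ± 0.16, edgeR adjusted p = 0.0409), with both together (1.06 ± 0.16, edgeR adjusted p = 0.00217) and with low oxygen averaged (0.61 ± 0.11, edgeR adjusted p = 0.00485). With both together 2 further genes of purine synthesis fell, Adsl (-0.73 ± 0.18, edgeR adjusted p = 0.0272) and Impdh2 (-0.91 ± 0.22, edgeR adjusted p = 0.0312). With low oxygen averaged Cad, Mthfd1, Adsl and Prps2 fell, by 0.69 ± 0.12, 0.46 ± 0.11, 0.50 ± 0.12 and 0.41 ± 0.12 on the log2 scale (edgeR adjusted p from 0.00518 to 0.0468). Of 14 other deoxynucleotide genes Dctpp1, which clears unwanted deoxycytidine triphosphates, fell with both together (-1.31 ± 0.28, edgeR adjusted p = 0.017, 11 libraries) and with low oxygen averaged (-0.80 ± 0.18, edgeR adjusted p = 0.0211). The nucleoside diphosphate kinase gene Nme2 fell with low oxygen averaged (-1.20 ± 0.33, edgeR adjusted p = 0.0457, 11 libraries). Of 10 genes of fork chromatin and maintenance Ssrp1, a subunit of the histone chaperone FACT, fell with low oxygen averaged (-0.31 ± 0.09, edgeR adjusted p = 0.0471, 11 libraries). Of 33 G1/S regulators the cyclin gene Ccnd1 fell with 11 libraries in low oxygen alone (-1.99 ± 0.47, edgeR adjusted p = 0.0495), with both together (-2.48 ± 0.56, edgeR adjusted p = 0.0213) and with low oxygen averaged (-1.84 ± 0.36, edgeR adjusted p = 0.00983). Cdkn1b, the inhibitor p27, rose with low oxygen averaged with 12 libraries (0.85 ± 0.19, edgeR adjusted p = 0.0454) and with 11 (0.78 ± 0.17, edgeR adjusted p = 0.0186), and with both together with 11 (0.98 ± 0.26, edgeR adjusted p = 0.0377). No other gene of these 5 lists passed edgeR's test in any of the 8 comparisons with 12 or with 11 libraries.

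Genes of mitosis, which follows S phase and G2 in the cell cycle, are set beside the members as a description, without a test of the difference between the lists. With both together edgeR called 1 of 25 mitosis genes lower with 12 libraries, Cdk1 (-1.43 ± 0.31, edgeR adjusted p = 0.0401). It called 1.61% of all genes there in either direction. With 11 libraries it called 8 lower, against 3.26% of all genes lower, and 0 passed in the other 7 comparisons. The 8 were Cdk1, Cenpf, Tpx2, Cdc20, Prc1, Nusap1, Cdca8 and Hmmr. For low oxygen alone the 25 mitosis genes had a median of -0.42, near the members' -0.55. Of the 25, 1 did not overlap with hypoxia-NaCl lower, against 15 of 40 members and 12% of all genes. For lactate in normoxia the mitosis median was -0.80, below the members' -0.41. Of the 25, 15 did not overlap with normoxia-lactate lower, against 5 of 40 members and 6.16% of all genes. In each library the members' summed CPM was divided by that of the mitosis genes. The ratio was 1.27, 1.09 and 1.17 in normoxia-NaCl and 1.08, 1.01 and 1.20 in hypoxia-NaCl. It was 1.53, 1.48 and 1.48 in normoxia-lactate and 1.62, 1.53 and 1.70 in hypoxia-lactate. All 6 lactate libraries were thus above all 6 NaCl libraries, and without Pcna the ranges were 1.07 to 1.28 and 0.811 to 1.03. When Ung, Rrm1, Rfc2 and Pola1 were taken out as well, hypoxia-lactate 3 had 0.665 and was the lowest of all, while the other 5 lactate libraries, at 0.945 to 1.13, remained above the 6 NaCl libraries at 0.726 to 0.913. The ratio was chosen after the sums were seen. Mki67, a marker of cycling cells, was at 237, 288 and 164 CPM in normoxia-NaCl, 133, 166 and 127 in normoxia-lactate, 211, 222 and 123 in hypoxia-NaCl and 143, 142 and 134 in hypoxia-lactate. It was thus lower in hypoxia-lactate than in normoxia-NaCl without overlap, and normoxia-lactate 2 alone of its group reached the lowest normoxia-NaCl library.

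**Figure D4:**
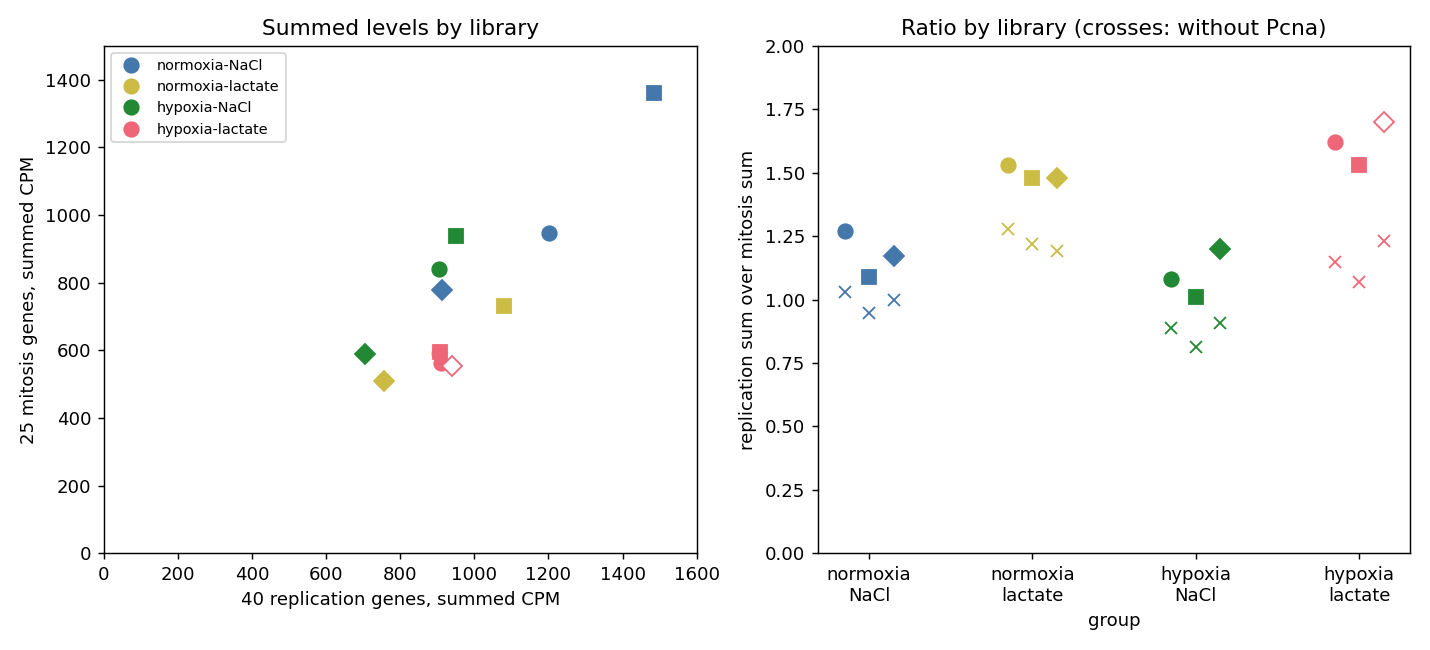
Left, summed CPM of the 40 replication genes (x axis) and of 25 mitosis genes (y axis) in each library; right, the ratio of these sums by group (circle, square and diamond for replicates 1, 2 and 3, open diamond for hypoxia-lactate 3, crosses without Pcna). The ratios lie between 1.01 and 1.27 in NaCl libraries and between 1.48 and 1.70 in lactate libraries.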

How the data were processed

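RNA of 12 libraries was measured by sequencing; per the labels' protocols, poly(A) RNA was converted to libraries for Ion Proton sequencing. The values are unnormalized counts per Ensembl gene as deposited; BWA, HTSeq and mm9 are named without versions in the submitters' processing notes. No source used here gives the annotation release or strand setting, so overlapping genes and near-identical copies are uncertain. The table has 37620 gene rows, of which 32897 had a symbol in a GENCODE annotation of another build. A further 5 counters that name no gene were left out (reads not uniquely aligned, 8.34% to 18.4%; outside genes, 13.7% to 22%; not aligned, 2.02% to 5.49%; ambiguous, 0.361% to 0.443%; low quality, 0%).

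Each of 8 comparisons was tested in 1 edgeR 4.0.16 quasi-likelihood fit (R 4.3.3) over 12 libraries with 4 group means, TMM scaling, filterByExpr and Benjamini-Hochberg adjustment over all tested genes (threshold 0.05). SE was taken as the size of the log2 fold change divided by the root of its F statistic. The common coefficient of variation between libraries was 38.3%. Alternatives used DESeq2 1.42.0, limma 3.58.1, other scalings and filters, the library number as a block, and fewer libraries; those that combine DESeq2, unweighted limma-voom, another scaling or each further library left out in turn with hypoxia-lactate 3 left out were chosen after seeing the data. The departures from group means of libraries with a shared number correlated at 0.138, 0.315 and 0.202 for hypoxia-NaCl and normoxia-NaCl, all over 0.1, and this pairing comes from the data, not the labels. The fit was tested on simulated data with known fold changes. Each simulated gene had the same spread in all libraries, so no simulated library stood apart as hypoxia-lactate 3 does, and its effect was not tested there.

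The members, the lists and the library left out in the fits with 11 libraries were chosen with earlier results of these data known. Values are given in every library for the 10 members past the threshold in either fit, with 12 libraries or with 11, and per role for the member with the highest mean CPM and that with the largest difference for low oxygen alone (21 in all), with a few others named after their values were seen; of other pathway lists, every gene past the threshold is named. Promoters come from RefSeq tables of GRCm38.p6.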

Additional observations from a re-analysis of the deposited data

How the results depend on the processing

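The count of members past the threshold, 0 in each of the 8 comparisons with 12 libraries, changed with the libraries and the test used. Without hypoxia-lactate 3 the count was 2 for low oxygen alone, 8 for both together and 7 for low oxygen averaged, with RLE or upper-quartile factors too, and 0 in the other 5. The members called were lower unless Pcna or Ung is named as higher, and percentages in parentheses are the share of all tested genes called in the same direction. DESeq2 with 12 libraries called 1 member for low oxygen with lactate, Pcna as higher (1.94%), 9 for both together (4.03%) and 4 for low oxygen averaged (2.35%). Without hypoxia-lactate 3 DESeq2 called 8 for low oxygen alone (3.24%), Pcna as the 1 with lactate, higher (1.98%), 15 for both together (7.55%), 9 for low oxygen averaged (7.1%) and 1 for lactate averaged (1.43%). Limma-voom without that library called 2 for low oxygen alone (0.464%), 3 for both together (2.34%) and 5 for low oxygen averaged (3.06%), and 0 elsewhere. Library quality weights in limma-voom gave 3 for low oxygen alone (1.43%) and, for low oxygen with lactate, 1, Pcna as higher (3.32%). They gave 5 for both together, 4 lower (3.37%) and Pcna higher (4.01%), and 9 for low oxygen averaged, 8 lower (6.92%) and Pcna higher (8.2%). Testing without the filter gave 1 for both together (0.403%). Leaving out 1 of the 12 libraries gave 0 to 2 for low oxygen alone, 0 to 8 for both together, where leaving out hypoxia-lactate 1 or 2 gave 1 each, Ung as higher, and 0 to 7 for low oxygen averaged. Leaving out 1 more of the 11 gave 1 to 5, 0 to 14 and 1 to 9. Of these ranges, the counts of 2, 8 and 7 without hypoxia-lactate 3 stood beside 0.557%, 3.26% and 3.68% of all genes lower. Shares for the other fits in the ranges are not given, so their counts cannot be set against all genes. Those without hypoxia-lactate 3 and a further library of its group left 1 library there. Leaving out hypoxia-lactate 3 and normoxia-NaCl 1 gave 1 for low oxygen alone (0.243%) and 1 for low oxygen with lactate, Pcna as higher (1.55%). It gave 5 for both together, of which Pcna was higher (share not given), and 6 for low oxygen averaged (4.2%). The causes were not tested.

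The library number as a block called 0 members for low oxygen alone, 5 for both together (0.773%) and 2 for low oxygen averaged (0.349%) with 12 libraries. With the block and without hypoxia-lactate 3 the counts were 13 for low oxygen alone (2.62%), 3 for low oxygen with lactate (0.663%), 2 for lactate in normoxia (0.192%), 21 for both together (7.3%), 18 for low oxygen averaged (7.71%), 6 for lactate averaged (0.954%) and 0 for lactate in hypoxia and the interaction. Outside low oxygen alone the lowest correlation of same-numbered libraries was between -0.069 and 0.082. The 4 libraries numbered 2 shared high neutrophil markers and raised Cebpe, Flt3, Elane and Prtn3. The 4 numbered 1 shared high fibroblast markers, and the labels do not say what the number marks.

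In the 7 comparisons other than the interaction the members' median was negative under all settings run except for lactate in hypoxia without hypoxia-lactate 3, where it was 0.02 when hypoxia-NaCl 2 and 0.04 when hypoxia-lactate 2 was left out too. Over all genes edgeR with 12 libraries, edgeR with 11 and DESeq2 with 12 called 41, 270 and 153 for low oxygen alone, 33, 130 and 437 for low oxygen with lactate, 0, 5 and 10 for lactate in normoxia, 0, 6 and 112 for lactate in hypoxia, 235, 1035 and 1450 for both together, 0, 0 and 1 for the interaction, 201, 1145 and 859 for low oxygen averaged, and 5, 46 and 103 for lactate averaged. Rfc2 for both together, -0.09 with 12 libraries, turned to 0.02, 0.13 and 0.11 when normoxia-NaCl 1, hypoxia-lactate 1 or hypoxia-lactate 2 was left out, and ran from -0.75 to 0.13 over all single libraries left out, of the 12 or of the 11. Upper-quartile scaling moved the median of all genes to -0.16, -0.15, -0.13 and -0.16 for low oxygen with lactate, lactate in hypoxia, both together and the interaction. The members' medians under that scaling were -0.56, -0.35, -0.95 and -0.002, not corrected for the shift. In sparse members, such as Orc1 with 0 to 100 counts a library, depth limits the estimates.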
